A study of Mus musculus with 2 samples.

Results

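The genes described here are the ephrins and their Eph receptors, the Slits and their Robo receptors, and the netrins with the netrin-G proteins and the receptors Unc5a to Unc5d, Dcc and Neo1. They were chosen by gene name alone among the protein-coding genes of the newer annotation (GENCODE M21), which gave 41 genes of 22028 protein-coding genes and 55536 genes in all. The tissue was forebrain of mouse embryos of strain B6NCrl at embryonic day 12.5, with both sexes mixed. RNA was pooled from 120 embryos for pool 1 and from 68 embryos for pool 2, and each pool gave 1 polyA-plus library from 10 ng of RNA. The pools are labelled biological replicates of 1 group, so the data address the level of each gene, its transcript forms and how far the pools differed.

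Ephrins are cell-surface ligands that bind Eph receptor tyrosine kinases on neighbouring cells. A ephrins are held in the membrane by a lipid anchor and bind mainly EphA receptors, whereas B ephrins cross the membrane and bind mainly EphB receptors, and both partners can signal into their own cell. Slits are secreted proteins that repel growing axons and migrating neurons through Robo receptors. Netrins are laminin-related secreted proteins that attract axons through Dcc and can repel them through Unc5 receptors. In the embryonic forebrain these systems are known to guide thalamocortical, corticofugal and commissural axons and to set boundaries between cell populations.

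Levels are in TPM, a transcript abundance corrected for transcript length and scaled to the same total in each library. The libraries held 33373843 (pool 1) and 34406648 (pool 2) gene counts, and the 41 genes together held 846 and 872 TPM. Each pair of values in the text gives pool 1 first and pool 2 after it, and each ± is an SD over n = 2 pools. With so few samples a two-sided exact sign-flip test has a least p of 0.5, so none was run and differences are given as sizes. Forebrain markers were detected in 5 of 5 cases and midbrain or hindbrain markers in 0 of 8 (summed levels 1.11 and 1.46 TPM, with En2 and Hoxa2 at 0 counts). Markers of endothelium (9 of 9), mesenchyme (8 of 8), red cells (7 of 7) and surface epithelium (5 of 6) were also detected, so the pools held more than neural cells. In such bulk RNA, fewer cells of a type and less RNA per cell cannot be told apart.

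A TPM of at least 1 in both pools, called detected here, was reached by 37 of the 41 genes, against 58.9% of all protein-coding genes. A TPM of at least 10 in both pools was reached by 22 of the 41, against 40.2% of protein-coding genes, and a TPM of at least 20 by 16 of the 41, against 30.2%. The median of the genes' mean levels was 13.5 TPM, and that of all protein-coding genes was 4.08 TPM. The 4 genes that were not detected were Epha1, Epha6, Epha10 and Ntn5. The levels ran from 80.1 ± 3.49 TPM for Efnb1 down to 0.22 ± 0.057 TPM for Ntn5. When the genes are ranked by mean level, 27 of the 40 pairs of neighbours had overlapping pool values and 13 did not. In this annotation the order thus has steps rather than a gene by gene sequence. The steps that separated neighbours include Efnb1 from Epha3, Epha3 from Efnb3, Robo1 from Epha4, and Efna2 from Slit2. Of these named steps, only that of Efnb1 from Epha3 held in the older annotation (GENCODE M4). There Epha3 (53.4 and 57.5 TPM) overlapped Efnb3 (59.8 and 52.6 TPM). Robo1 (42.4 and 40.25 TPM) lay below Epha4 (45.8 and 47.8 TPM). Slit2 (33.1 and 33.2 TPM) lay between the values of Efna2 (29.9 and 40.3 TPM).

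**Figure D1:**
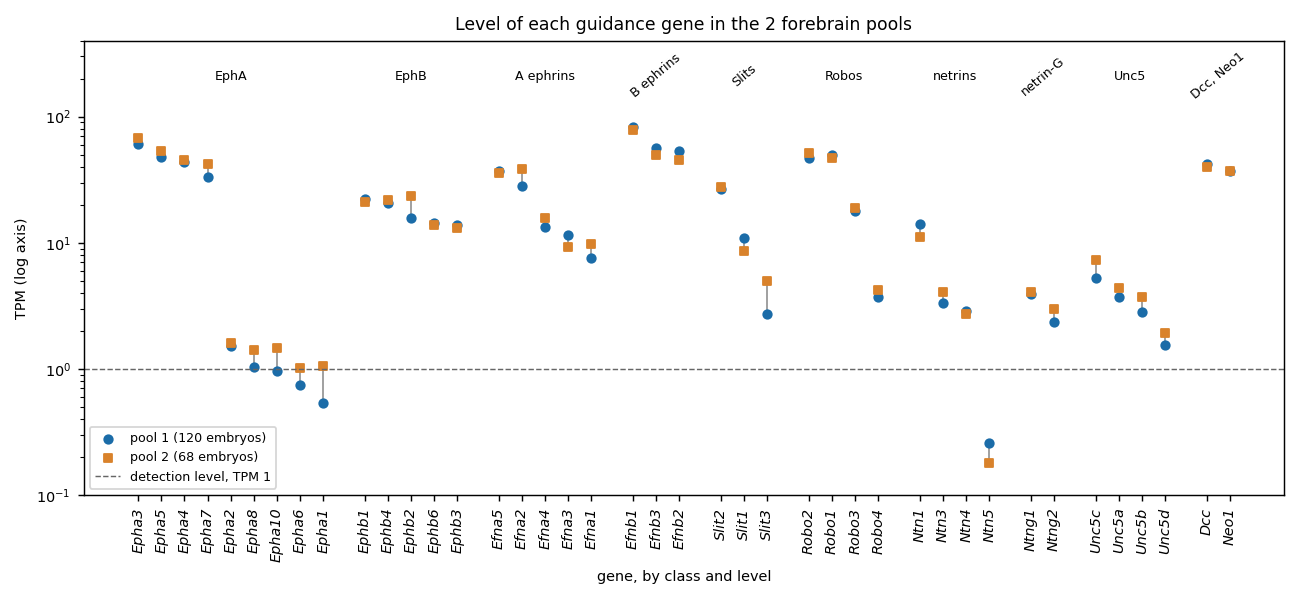
TPM on a log axis for each of the 41 genes in pool 1 (circles) and pool 2 (squares), grouped by class and ordered by level, with a grey line joining the pools and a dashed line at TPM 1. The EphA receptors split into 4 genes above 33 TPM and 5 genes below 1.7 TPM, while all 3 B ephrins lie above 45 TPM.

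The EphA receptors fell into a high and a low set with nothing between. Epha3 read 60.3 and 68.0 TPM, Epha5 read 47.7 and 53.6 TPM, Epha4 read 43.9 and 45.7 TPM, and Epha7 read 33.5 and 42.2 TPM. All 4 were a little higher in pool 2 on this scale. Epha4 is unusual in binding ephrins of both classes. The other 5 stayed low: Epha2 read 1.52 and 1.60 TPM, Epha8 read 1.04 and 1.40 TPM, Epha10 read 0.96 and 1.47 TPM, Epha6 read 0.75 and 1.02 TPM, and Epha1 read 0.54 and 1.06 TPM. Epha10 is a member without kinase activity. The gap between the sets, from 1.60 to 33.5 TPM, was far wider than the spread between the pools of any gene in either set. Epha1 lies beside and partly under the highly expressed Zyx on the opposite strand (52.2 to 55.5 TPM, sharing 6.01% of Epha1's exonic bases), and whether the counting used strand is not given in the sources used here, so its low value is uncertain.

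The EphB receptors had no such split. Ephb1 read 22.4 and 20.9 TPM, Ephb4 read 20.9 and 21.7 TPM, Ephb2 read 15.8 and 23.7 TPM, Ephb6, whose kinase domain is inactive, read 14.4 and 13.9 TPM, and Ephb3 read 13.8 and 13.1 TPM. The 5 means lay between 13.5 and 21.6 TPM. Summed over the class, the EphA genes came to 203 ± 18.3 TPM and the EphB genes to 90.2 ± 4.26 TPM, a ratio of 2.18 in pool 1 and 2.32 in pool 2. Ephb4 is known from the venous endothelium, and the 9 endothelial markers had summed levels of 106 and 107 TPM. The share of Ephb4 that comes from vessels was not tested.

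Several Eph genes were present in forms that differ by short, in-frame pieces of coding sequence. The pieces are shown because the estimates that follow compare forms with and without them. Each line gives the piece in capitals, with 12 coding bases on either side in lower case, 5′ to 3′ on the gene's strand, from the GENCODE M21 transcripts with GRCm38 coordinates.
Epha3, 3 bases, chr16:63611106-63611108, minus strand: tactatgaaaagCAGgagcaagagacg
Ephb2, 3 bases, chr4:136675531-136675533, minus strand: tactatgagaagCAGgagctcagtgag
Epha5, 3 bases, chr5:84142381-84142383, minus strand: ccacaccagtgtCAGttgcagcatcta
Epha5, 66-base exon, chr5:84117561-84117626, minus strand: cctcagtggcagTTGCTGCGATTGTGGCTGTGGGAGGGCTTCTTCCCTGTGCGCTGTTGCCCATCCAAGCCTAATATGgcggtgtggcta
Ephb1, 123-base exon, chr9:101984082-101984204, minus strand: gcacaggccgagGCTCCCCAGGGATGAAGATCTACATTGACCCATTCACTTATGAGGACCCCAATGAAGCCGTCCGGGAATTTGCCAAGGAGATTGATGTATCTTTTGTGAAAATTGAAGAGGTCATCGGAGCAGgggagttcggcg

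The 3-base pieces in Epha3, Epha5 and Ephb2 all read CAG and all form the first bases of an exon. In Epha3 and Ephb2 the 12 bases before the piece were identical at 11 positions. Of the TPM of transcripts that span the site, the form with CAG held 87.4% in pool 1 and 90.5% in pool 2 for Epha3, but 26.8% and 44.8% for Ephb2. Epha3 thus mostly kept the piece in both pools and Ephb2 mostly left it out. The Ephb2 forms also differ elsewhere: the leading transcript with CAG, Ephb2-201, is 4804 bases long and the leading one without it, Ephb2-202, is 10902 bases, and which bases set the estimate was not tested. The 66-base exon of Epha5 and its 3-base piece were carried by the same transcripts, at 70.1% in pool 1 and 65.9% in pool 2. A further Epha5 exon of 156 bases was included at 31.1% and 29.5%. The 123-base exon of Ephb1 was included at 83.9% and 81.5%, and the estimate for the form without it, Ephb1-202, was wide, with a deposited interval from 0.0835 to 4.74 TPM in pool 1. A 27-base exon start of Ephb4 was included at only 11.6% and 9.78%.

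The high EphA genes also differed in how much of their level came from transcripts with a coding sequence. Epha5 had a retained-intron transcript without coding sequence, Epha5-207, as its leading form by TPM, at 22.2 and 25.6 TPM, which is 46.5% and 47.7% of the gene's TPM. By expected counts Epha5-207 held 24.8% and 26.3%, and the coding Epha5-201 led with 39.3% and 35.5%. Counting only transcripts with a coding sequence brought Epha5 to 22.3 and 23.6 TPM. In Epha7 the non-coding Epha7-208 read 8.15 and 15.0 TPM, and the coding transcripts read 20.2 and 21.2 TPM. The difference between the pools in total Epha7 therefore sat mostly in the non-coding form. Epha7-202, a coding transcript of 1830 coding bases against 2994 in the longest form, held 11.2% and 13.4% of Epha7 TPM. Truncated Epha7 forms that lack most of the kinase domain are known from the developing brain, but the reading frame of Epha7-202 was not examined. Epha3 stayed at 55.1 and 58.6 TPM when only coding transcripts were counted, and Epha4 at 42.23 and 42.25 TPM. For Epha4 this includes transcripts annotated as targets of nonsense-mediated decay, which held 57.8% and 20.8% of its TPM.

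Each of the B ephrins was among the 5 genes of highest mean level. Efnb1, on chromosome X (99136130 to 99148991, GRCm38), read 82.6 and 77.7 TPM, the highest level of the 41 genes in both pools. Efnb3 (chromosome 11) read 56.7 and 49.9 TPM, and Efnb2 (chromosome 8) read 53.2 and 45.0 TPM. All 3 were higher in pool 1. The full coding form made up at least 95% of TPM for each of them, so their level was almost wholly protein-coding. Efnb2 is also an arterial endothelial gene, and its part from vessels was not tested.

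The A ephrins were spread more widely. Efna5, known for ordering topographic maps, read 37.3 and 35.8 TPM, and Efna2 read 28.4 and 38.3 TPM. These values of Efna2 lie on either side of both Efna5 values, so their order was not resolved. Efna4 read 13.3 and 15.7 TPM, Efna3 read 11.6 and 9.28 TPM, and Efna1 read 7.54 and 9.86 TPM. Efna1, Efna3 and Efna4 lie next to each other on the same strand of chromosome 3, with 32.8 kb between Efna1 and Efna3 and 10.4 kb between Efna3 and Efna4, and their means differed by less than the distance of any of them to Efna2. The B ephrins summed to 183 ± 14.1 TPM and the A ephrins to 103 ± 7.54 TPM, a ratio of 1.96 in pool 1 and 1.59 in pool 2. The ligands were thus ordered the opposite way to the receptors, B above A where EphA stood above EphB, in each of the pools. The longest-form share was at or near 100% for Efna1, Efna2, Efna4 and Efna5 in both pools.

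Among the Slits, Slit2 dominated. It read 26.6 and 27.8 TPM, Slit1 read 10.9 and 8.62 TPM, and Slit3 read 2.73 and 4.94 TPM. Slit2 held 66.1% of the class in pool 1 and 67.2% in pool 2. The pool values of the 3 genes did not overlap. Slit2 was also the gene with the most annotated transcripts, 23, of which 8 have a coding sequence. Those 8 summed to 14.6 and 15.3 TPM, because 45.1% of its TPM in each pool lay in transcripts without coding sequence. By expected counts the share without coding sequence was 22.5% and 23.5%. The coding forms were separated by 3 very short exons, shown as above because they are its optional coding pieces.
Slit2, 12-base exon, chr5:48191003-48191014, plus strand: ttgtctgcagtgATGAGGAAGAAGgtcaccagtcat
Slit2, 24-base exon, chr5:48220967-48220990, plus strand: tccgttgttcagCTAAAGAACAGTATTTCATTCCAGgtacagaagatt
Slit2, 27-base exon, chr5:48263641-48263667, plus strand: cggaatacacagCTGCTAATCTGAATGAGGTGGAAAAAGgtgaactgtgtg

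Exons this short are called microexons and are known mainly from neurons. The 12-base exon was mostly included, at 68.6% in pool 1 and 59.9% in pool 2. The 24-base exon was mostly skipped, with inclusion of 25.1% and 35.5%. The 27-base exon was also mostly skipped, with inclusion of 20.7% and 12.3%. The 12-base exon was above 50% in both pools and the others below it. These shares come from estimated transcript levels, not from reads counted across exon junctions, and junction reads were not used here.

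The Robo receptors were more abundant than the Slits, at a summed 118 and 121 TPM against 40.2 and 41.4 TPM. The ratio was 2.94 in pool 1 and 2.93 in pool 2. Robo2 read 47.1 and 51.1 TPM and Robo1 read 49.5 and 46.8 TPM, so the pool values of the main Slit receptors overlapped. They lie on opposite strands of chromosome 16, 846 kb apart. Robo3, which is known to let commissural axons cross the midline, read 17.7 and 18.9 TPM. Robo4, an endothelial member, read 3.74 and 4.25 TPM. Robo3 and Robo4 lie on opposite strands of chromosome 9 with 0.553 kb between them, and their pool values did not overlap.

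Coding transcripts alone gave 41.1 and 38.3 TPM for Robo1 and 30.4 and 30.8 TPM for Robo2, so on that scale Robo1 was the higher in both pools. The leading Robo2 transcript by TPM, Robo2-209, is a retained-intron form without coding sequence that read 14.0 and 17.6 TPM. It held 27.5% and 32.9% of the Robo2 counts, against 34.0% and 28.8% for the coding Robo2-202. Robo3 came to 11.9 and 11.2 TPM in coding transcripts. Robo2 also carried a microexon of 12 bases, shown for comparison with that of Slit2.
Robo2, 12-base exon, chr16:74008775-74008786, minus strand: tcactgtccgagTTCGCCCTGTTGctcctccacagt

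Inclusion of the Robo2 microexon was 26.0% in pool 1 and 29.2% in pool 2, so the form without it prevailed. Larger Robo2 exons of 126 and 183 bases were also mostly skipped, with inclusion of 23.6% and 18.4% for the first and of 11.5% and 16.8% for the second.

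The netrins were low apart from Ntn1. Ntn1 (chromosome 11, 68209364 to 68400823, GRCm38) read 14.1 and 11.1 TPM. Ntn3 read 3.32 and 4.08 TPM, Ntn4, a basement membrane netrin, read 2.90 and 2.74 TPM, and Ntn5 read 0.26 and 0.18 TPM. Ntn5 rested on 8.75 and 6 counts, where 3 counts correspond to 0.0891 and 0.09 TPM. The netrin-G proteins, which are membrane-anchored and bind the NGL proteins rather than Dcc, read 3.89 and 4.04 TPM for Ntng1 and 2.37 and 2.99 TPM for Ntng2. Ntng2 shares 14.0% of its exonic bases with a non-coding gene on the same strand, 6530402F18Rik, at 2.30 and 2.73 TPM, so its reads may be split. The longest annotated coding form of Ntng1 and of Ntng2 held 0% of TPM in both pools. Transcripts with at least 80% of the longest coding sequence held 51.5% and 53.8% of Ntng1 TPM and 75.2% and 53.2% of Ntng2 TPM. The leading Ntng2 transcript, Ntng2-204, has 1590 coding bases against 1767 in the longest form and held 54.2% and 53.2% of the TPM. The leading Ntng1 transcript, Ntng1-208, has 1314 coding bases against 1617 in the longest form and held 48.5% and 53.8% of the TPM. It held 90.3% and 92.7% of the counts, since a transcript of only 327 bases, Ntng1-201, took 44.3% and 40.5% of TPM on 8.34 and 8.28 counts.

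The netrin receptors were unevenly expressed. Dcc read 42.4 and 39.6 TPM, and Neo1, neogenin, which binds repulsive guidance molecules as well as netrins, read 37.1 and 37.0 TPM. Their pool values did not overlap. The Unc5 receptors were much lower, with Unc5c at 5.26 and 7.32 TPM, Unc5a at 3.74 and 4.36 TPM, Unc5b at 2.82 and 3.68 TPM and Unc5d at 1.54 and 1.93 TPM. All 4 were higher in pool 2 in TPM. Unc5c at the top and Unc5d at the bottom stood apart from the pair between them, and Unc5a stood just above Unc5b, with 3.74 TPM as its lowest value against 3.68 TPM as the highest of Unc5b. Dcc and Neo1 summed to 78.0 ± 2.06 TPM and the Unc5 genes to 15.3 ± 2.78 TPM, a ratio of 5.95 in pool 1 and 4.43 in pool 2. Both Dcc and Neo1 had coding forms of different length. A 60-base exon start of Dcc was included at 69.8% in pool 1 and 61.0% in pool 2, between Dcc-202 (4341 coding bases) and Dcc-201 (4281 coding bases). The whole transcripts are 10323 and 4855 bases long, and which bases set the estimate was not tested. The pieces that separate the leading Neo1 forms are shown because Neo1 is the closest relative of Dcc.
Neo1, 33-base exon, chr9:58902083-58902115, minus strand: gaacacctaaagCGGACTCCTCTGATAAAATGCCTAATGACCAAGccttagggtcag
Neo1, 48-base exon start, chr9:58907047-58907094, minus strand: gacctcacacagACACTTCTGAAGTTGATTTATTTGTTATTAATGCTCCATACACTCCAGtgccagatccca

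Both pieces belong to Neo1-201 and are absent from Neo1-202, so they share 1 inclusion value, 67.0% in pool 1 and 64.2% in pool 2. Neo1-201 read 17.9 and 17.7 TPM and Neo1-202 read 8.81 and 9.91 TPM. These transcripts are 7379 and 5414 bases long, so they also differ outside the pieces, and which bases set the estimate was not tested. A further 60-base exon start of Neo1 was included at 79.7% and 82.0%. The only transcript that spans and skips it, Neo1-205, is just 1215 bases long. It held 18.3% and 16.4% of Neo1 TPM but 3.88% and 3.39% of the counts.

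**Figure D2:**
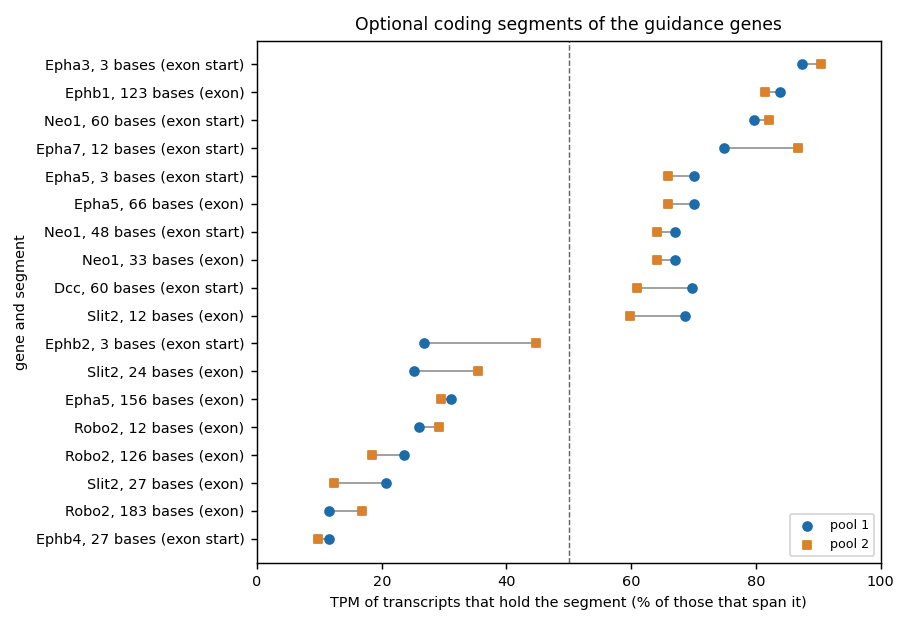
Inclusion of the 18 optional coding segments in pool 1 (circles) and pool 2 (squares), as a percent of the TPM of transcripts that span the segment, with a dashed line at 50%. All 18 segments lie on the same side of 50% in both pools, and the widest gap between the pools is that of the 3-base segment of Ephb2.

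Over all the genes, 18 such segments met the conditions (in frame, at most 200 bases, gene at a mean TPM of at least 5, lesser form at least 5% in both pools), in 10 of the 26 genes at that level. They comprised 10 whole exons and 8 pieces at the start of an exon, with 0 at an exon's end. The major form was the same in both pools for 18 of 18 segments, mainly included in 10 and mainly skipped in 8. The largest gap between the pools was 18.01 percentage points.

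Transcripts that carry at least 90% of the longest coding sequence made up a median of 88.2% of TPM in pool 1 and 82.3% in pool 2 over the 37 detected genes. That share was at least 90% on average for 16 genes and below 50% for 5. Transcripts without a coding sequence held at least 25% of TPM in 9 genes. Transcripts annotated as targets of nonsense-mediated decay counted as coding wherever they had a coding sequence. When only coding transcripts were counted, 8 of the 41 genes dropped by more than 1.5 times, namely Epha5, Epha6, Epha7, Slit2, Slit3, Robo2, Robo3 and Unc5c. No ephrin, EphB receptor or netrin was among them, and the lowest ratio of coding to total TPM was 0.452, in Epha6. Such counts were not taken over all protein-coding genes, so they have no background here. Since TPM divides by length, short non-coding transcripts weigh more in TPM than in reads: by expected counts the median share of the full form was 95.9%.

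**Figure D3:**
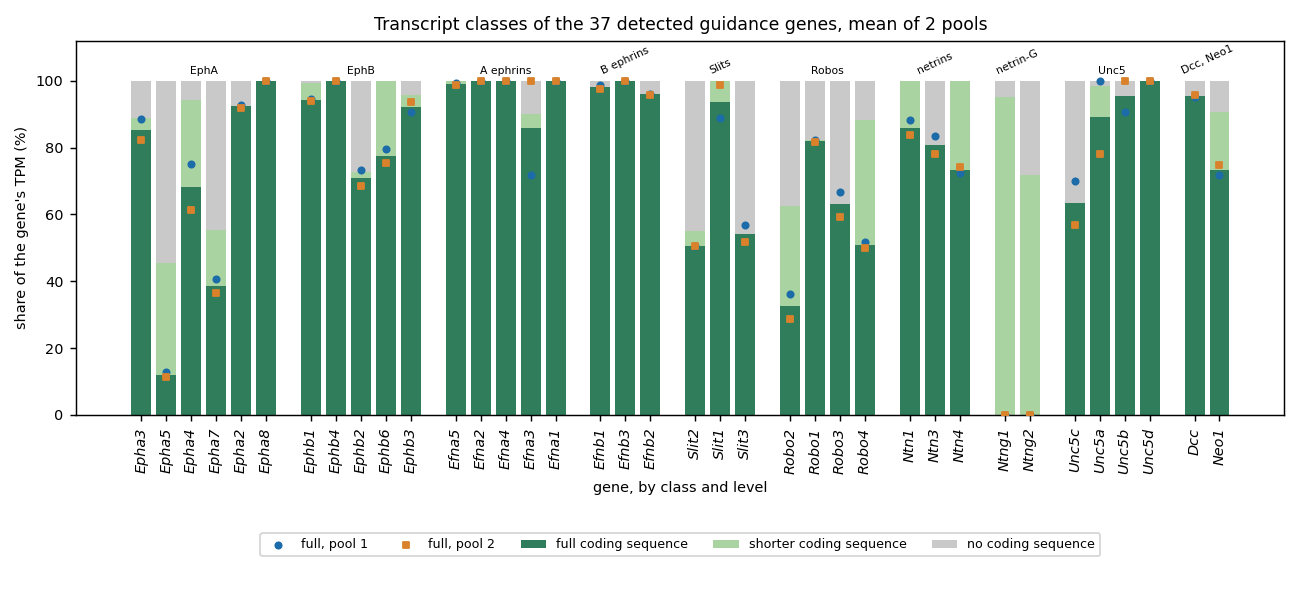
Share of each detected gene's TPM in transcripts with the full coding sequence (at least 90% of the longest), a shorter coding sequence or none, as stacked bars of the mean over 2 pools, with points for the full share in each pool. The ephrins other than Efna3 are almost wholly full-length, while Epha5, Epha7, Slit2, Slit3 and Robo2 hold large shares without coding sequence. Ntng1 and Ntng2 have no TPM in forms that reach the 90% cut, and the leading Ntng2 form, with 1590 of 1767 coding bases, falls just short of it.

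The promoters of these genes were rich in CpG dinucleotides, the feature of CpG islands, which mark many housekeeping and developmental genes. In the RefSeq promoter table (GRCm38.p6, 250 bases before to 50 bases after each start), 36 of the 41 genes had an entry, with 41 windows. The median window held 21 CpGs against 13 for all protein-coding genes of the table, and 87.8% of the windows held at least 10 CpGs against 56.8%. The motif GGGCGG, searched on both strands, was in 68.3% of the windows against 46.2%, and TATAAA, likewise on both strands, was in 4.88% (Slit2 and Efnb2) against 12.6%. A match is a run of letters and says nothing of a bound factor. The 120 bases before 4 starts are shown to set the most expressed gene (Efnb1) and the leading Slit beside genes at the low end of expression that have the most CpGs (Epha8) and nearly the fewest (Ntn5). Epha8 and Ntn5 were chosen after their values were seen, and CG is in capitals.
Efnb1, chrX:99135941-99136060, plus strand: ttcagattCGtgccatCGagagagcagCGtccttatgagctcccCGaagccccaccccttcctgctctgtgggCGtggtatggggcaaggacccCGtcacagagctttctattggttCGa
Slit2, chr5:47983035-47983154, plus strand: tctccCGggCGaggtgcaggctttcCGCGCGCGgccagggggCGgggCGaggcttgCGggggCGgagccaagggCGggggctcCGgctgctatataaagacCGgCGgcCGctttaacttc
Epha8, chr4:136956817-136956936, minus strand: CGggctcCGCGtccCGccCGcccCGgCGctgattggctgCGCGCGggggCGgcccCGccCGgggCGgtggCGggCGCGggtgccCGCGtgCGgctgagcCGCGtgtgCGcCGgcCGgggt
Ntn5, chr7:45683902-45684021, plus strand: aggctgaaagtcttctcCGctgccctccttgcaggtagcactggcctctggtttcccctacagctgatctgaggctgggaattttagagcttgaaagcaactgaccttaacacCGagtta

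These 120 bases held 7 CpGs in Efnb1, 15 in Slit2, 25 in Epha8 and 2 in Ntn5. CpG content did not order the levels: Epha8 had the most CpGs in its whole window, 56, at a mean of 1.22 TPM, while Efnb1 had 14 at 80.1 TPM. Neo1 had 54 CpGs at 37.1 TPM. By a gene's highest window, the fewest were in Robo4, with 2, Ntn5, with 3, and Ntng2, with 6. Across the 36 genes, Spearman's rho between the CpG count (the highest of a gene's windows) and the mean level was 0.144, a description across genes of the same libraries.

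**Figure D4:**
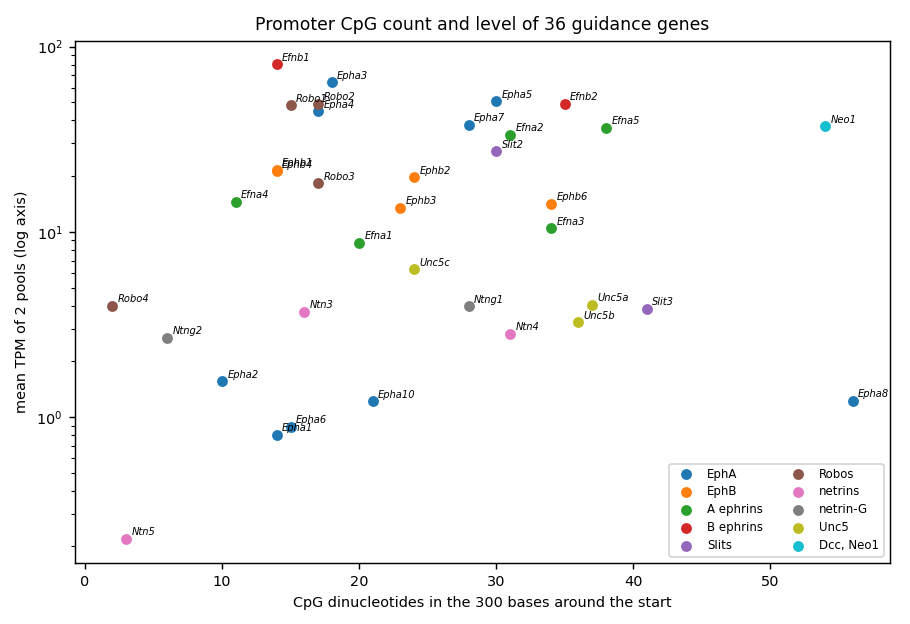
CpG count of the 300-base promoter window (the highest where a gene has several) against the mean TPM of the 2 pools on a log axis, 1 point per gene for 36 genes, coloured by class. Genes at every level have CpG-rich windows, and Robo4, Ntn5 and Ntng2, with 2 to 6 CpGs, all lie below 4.1 TPM.

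Between the pools, the genes differed little. Ratios were taken from expected counts scaled by TMM, with pool 1 over pool 2, for 40 genes, those whose mean count reached 10. The median log2 ratio was -0.05, and that of all protein-coding genes tested was 0.01. Of the 40, 0 were over 1.5-fold higher in pool 1, against 2.39% of protein-coding genes, and 2 were over 1.5-fold higher in pool 2, against 4.4%. With a call at 25% higher in either pool, these counts were 1 (background 6.17%) and 8 (background 9.9%), and at 2-fold they were 0 (background 0.696%) and 0 (background 1.43%). A total of 24 of the 40 were higher in pool 2 by any size, against 46.6% of protein-coding genes. When the libraries were instead scaled by their ERCC spike-in counts, 35 of the 40 were higher in pool 2. That scale moved genes in general toward pool 2, with a median log2 ratio of -0.17 over all genes and -0.21 over the 40. The share of protein-coding genes higher in pool 2 was not taken on that scale, so the count of 35 has no background.

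Epha1 and Slit3 had the largest ratios toward pool 2, and Ntn1 the largest toward pool 1. Epha1 rested on 36.2 and 74.2 counts, a log2 ratio of -0.95 with a 95% interval of -1.58 to -0.37 for counting error only. Slit3, with 194 and 328 counts, had a log2 ratio of -0.68 (interval -0.95 to -0.42), the largest ratio among the genes with over 100 counts in each pool. The 8 mesenchyme markers were all higher in pool 2 as well (median log2 ratio -0.37), with summed levels of 655 and 798 TPM, and so were the 7 red cell markers, with a median of -0.44. Ntn1, with 1522 and 1194 counts, was 1.34-fold higher in pool 1 (log2 0.43, interval 0.32 to 0.54). All 10 subpallium markers also read more counts there (median log2 ratio 0.63), with sums of 707 and 490 TPM. Of 6 surface epithelium markers, 4 were higher in pool 1 and 2 in pool 2 (median 0.35). Of 8 pallium markers, 2 were higher in pool 1 and 6 in pool 2 (median -0.14). The part that these cell populations had in Slit3 and Ntn1 was not tested.

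**Figure D5:**
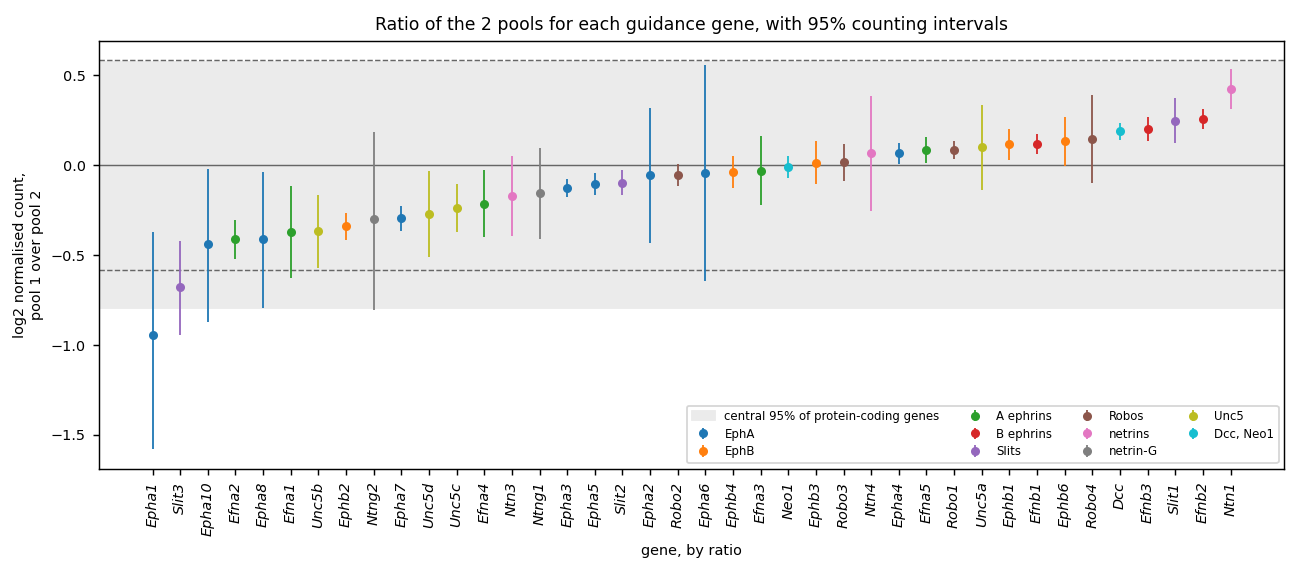
Log2 ratio of normalised counts, pool 1 over pool 2, for 40 genes ordered by ratio and coloured by class; bars are exact 95% intervals for counting error, the grey band holds the central 95% of protein-coding genes and dashed lines mark 1.5-fold. Only Epha1 and Slit3 lie beyond the lower dashed line, and Epha1 alone leaves the grey band.

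By class, the B ephrins leaned to pool 1, with log2 ratios of 0.12 for Efnb1, 0.26 for Efnb2 and 0.20 for Efnb3. Of the A ephrins, Efna2 (-0.41), Efna1 (-0.37), Efna4 (-0.21) and Efna3 (-0.03) were below 0 and Efna5 (0.08) was above it. On the spike-in scale 11 of the 40 genes changed sign, Efnb1, Efna5, Unc5a and Robo1 among them. Among the Unc5 genes Unc5b (-0.37), Unc5d (-0.27) and Unc5c (-0.24) were below 0 and Unc5a (0.10) above it, whereas Unc5a was the other way round in TPM. Direction in TPM and in counts also differed for Epha4, Efna3, Robo3, Robo4 and Neo1, all within 0.15 of 0 in counts; TPM divides by an effective length that changes with the estimated mix of transcripts. Dcc (0.19) and Neo1 (-0.01), and Robo1 (0.09) and Robo2 (-0.05), stayed within 1.15-fold.

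Genes that act with these ligands and receptors were almost all present. Of all protein-coding genes, 58.9% were detected, which is the background for each list of partners. Of 28 partners of Ephs and ephrins, 27 were detected, with a median of 28.8 TPM. They were led by the PDZ protein Sdcbp (221 ± 5.78 TPM), the adhesion scaffold Afdn (135 ± 10.7 TPM), the adaptor Crk (111 ± 3.59 TPM), the ephrin-shedding protease Adam10 (62.0 ± 0.523 TPM) and Anks1 (57.0 ± 13.1 TPM). The lowest were the exchange factor Ngef (2.06 ± 0.445 TPM), Grip2 (1.32 ± 0.262 TPM) and Grb7, at 0.88 and 1.27 TPM, the only one not detected. All 24 Slit and Robo partners were detected, from Ndfip1 (304 ± 6.41 TPM), the heparan sulphate proteoglycan Gpc1 (111 ± 19.5 TPM), Evl (95.4 ± 1.91 TPM), the Robo3 ligand Nell2 (83.7 ± 1.10 TPM) and Flrt3 (61.6 ± 8.18 TPM) down to Sos1 (6.22 ± 0.120 TPM), Flrt1 (5.98 ± 0.389 TPM) and Abl2 (5.39 ± 0.354 TPM). Nell2 was more abundant than all 3 Slits together in each pool. In the older annotation Anks1 read 25.3 TPM and Evl 50.9 TPM, so their rank depends on the annotation.

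Of 26 netrin and Dcc partners 25 were detected, against 58.9% of protein-coding genes. They were led by Maged1 (688 ± 26.9 TPM), the focal adhesion kinase Ptk2 (85.6 ± 4.56 TPM), Pitpna (74.9 ± 0.113 TPM) and Siah1a (73.2 ± 1.63 TPM). The lowest were Adora2b (2.33 ± 0.297 TPM), the further netrin receptor Dscam (1.95 ± 0.170 TPM) and Hfe2, hemojuvelin, a Neo1 ligand, at 0.42 and 0.66 TPM and not detected. Of the 78 entries of the 3 lists, which share Nck1 and Fyn, 1 passed 1.5-fold toward pool 1 and 1 toward pool 2. Of the protein-coding genes tested, 2.39% and 4.4% did so.

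The set is also made of long genes. The median span was 69.0 kb against 17.3 kb for all protein-coding genes, and 20 of the 41 spanned over 100 kb, from Dcc (chromosome 18, 71253634 to 72351069, GRCm38) at 1097 kb to Ntn4 at 107 kb. Spearman's rho between span and mean level across the 41 genes was 0.149, again a description across genes of the same libraries. The A ephrins Efna1, Efna2, Efna3 and Efna4 and the B ephrins Efnb1 and Efnb3 spanned at most 12.9 kb, while Efna5 spanned 277 kb.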

How the data were processed

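PolyA-plus RNA was measured in 2 libraries of mouse embryonic forebrain. Oligo-dT priming, a low-input kit with PCR of full-length cDNA, Nextera tagmentation and synthetic ERCC spike-in RNAs were used, per the labels' protocols. The authors deposited expected counts per gene and transcript, which are estimates that share out reads with several matches and are not normalised. The deposited TPM values sum to 1e6 in each library, spike-ins and numbered entries included. The deposited posterior means of TPM, with their interval bounds, are used here as a score. The effective length in the deposited tables is the length less 99 bases. No aligner, quantifier or strand setting is stated: each is not given in the sources used here. Of the deposited tables, 6 (3 per library) were used: genes and transcripts of GENCODE M21 and, as an alternative, genes of M4, all on mm10 (GRCm38). Numbered entries that name no gene held 5.96e-05% of counts in pool 1 and 9.3e-05% in pool 2 and were left out.

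Expected counts were rounded and scaled with TMM in edgeR 4.0.16 (R 4.3.3), with a mean count of at least 10 and a prior count of 1. Ratios past 1.5-fold were called, with exact Clopper-Pearson 95% intervals. Intervals and the floor of 3 counts cover counting error only: there were no molecular identifiers, and PCR copies are not independent. The pool ratio was tested on simulated data (19073 genes fitted): true changes of 1.5-fold came out at a median of 1.475, and those of 2-fold at 1.998. DESeq2 1.42.0 size factors, spike-in totals, other thresholds, the older annotation, coding transcripts alone, posterior means and each pool alone were tried as alternatives. Whether the pools share litters is not given, so the SD measures the spread between these 2 samples. Python 3.11.15, numpy 2.4.6, pandas 2.3.3 and matplotlib 3.10.9 were used.

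The genes, partner lists and marker lists were chosen with earlier results of these data known. Every gene of the set may be named. Of each partner list the 5 highest, the 3 lowest and every gene below TPM 1 in a library are named (1 gene that this allows is not reported here), and of the transcripts the leading one of each gene and any with at least 10% of its TPM in both pools. The rule for optional segments was set after the data were seen. Promoter windows that run over 30 bases into annotated exons were not printed, and protein sequences and sequence from chromosome 18 were not used here.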

Additional observations from a re-analysis of the deposited data

How the results depend on the processing

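No paired analysis was possible because there is 1 group and its 2 libraries are the only samples. The comparison of the pools needs both libraries, so it was not recomputed without either. The median level was 13.5 TPM with both pools, 13.1 TPM without pool 1 and 13.8 TPM without pool 2. The number of detected genes was 37 with both pools, 40 without pool 1 (Epha1, Epha6 and Epha10 passed TPM 1) and 37 without pool 2. The median share of the full coding form was 86.0% with both pools, 82.3% without pool 1 and 88.2% without pool 2. The number detected was 40 at TPM 0.5, 34 at TPM 2 and 37 in the older annotation. The median level was 14.4 TPM over the 40 genes matched in the older annotation (Ntn3 was not matched) and 12.6 TPM from coding transcripts alone. In the older annotation the class sums moved beyond the SD of the pools for the Slits (47.2 TPM), the Robos (111 TPM), the netrins (16.4 TPM, without Ntn3) and Dcc with Neo1 (71.8 TPM). From coding transcripts alone they moved for EphA (148 TPM), EphB (84.0 TPM), Slits (26.7 TPM), Robos (85.3 TPM), netrin-G (5.69 TPM) and Dcc with Neo1 (72.7 TPM), so the sums of B ephrins and EphA receptors changed places. By expected counts the median full share was 95.9%. The median log2 ratio of the pools was -0.05 with DESeq2 size factors (-0.0452), -0.21 with spike-in totals, -0.0351 with no filter on low counts, -0.05 in the older annotation (-0.0492), and -0.09 as a log2 ratio of TPM + 1 (-0.0852) or of TPM + 0.1 (-0.0894). The number over 1.5-fold higher in pool 1 was 1 with no filter (Ntn5, on 8.75 and 6 counts) and 1 with a call at 25% higher. The number over 1.5-fold higher in pool 2 was 1 as a log2 ratio of TPM + 1, 8 with a call at 25% higher, 0 at 2-fold and 3 with spike-in totals. With spike-in totals 11 of 40 genes changed direction. Low counts limit Ntn5, Epha1, Epha6 and Ntng2, each under 100 counts in both pools. The cause of these shifts was not tested.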

Other observations

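The transcript estimates of Epha4 were less stable than its gene level. Epha4-201 and Epha4-205 have the same 2958 coding bases and nearly the same length, 6328 and 6315 bases, but the second is annotated as a target of nonsense-mediated decay. Epha4-201 held 26.8% of Epha4 TPM in pool 1 and 61.3% in pool 2, while Epha4-205 held 44.1% and 0%, against a gene level of 43.9 and 45.7 TPM. In pool 2 the deposited interval of Epha4-205 ran from 0.280 to 13.8 TPM, although its TPM was 0. The deposited interval of Epha4-201 in pool 2 ran from 13.0 to 27.1 TPM and did not contain its TPM of 28.1. A TPM just above its interval was not particular to Epha4: Efnb1-201 in pool 1 read 81.5 TPM, with an interval from 76.8 to 81.0 TPM. Efna3 and Robo4 also had transcript shares that were absent from 1 pool: the part of Robo4 TPM without coding sequence was 0% in pool 1 and 23.5% in pool 2, and that of Efna3 was 19.7% and 0%.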
